A study of Rattus norvegicus with 26 samples.

Results

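A set of 9 genes, listed as markers of the neurons that border the granule cell layer, was followed in the dentate gyrus (DG) of rats given doxorubicin. They were the mossy cell genes Calb2, Calcrl and Ociad2 and the CA1 genes Fibcd1, Wfs1, Pou3f1, Spink8 and Mpped1. The last was Nr3c2, the mineralocorticoid receptor gene, which was listed with the CA fields. These 9 genes were matched by symbol among the 17910 gene IDs measured, each symbol had 1 gene ID, and the 2 rows of Calcrl were summed. RNA came from 26 male Fischer 344 rats about 6 months old, with 1 library per rat. The Veh group (n = 10) received vehicle and belonged to an ongoing study of brain aging. The Dox group (n = 8) received the anthracycline doxorubicin at 2 mg/kg into the peritoneum once a week for 4 weeks. The Dox + ABT group (n = 8) received the same doxorubicin and also ABT-263 (navitoclax), a senolytic drug that blocks anti-apoptotic BCL-2 proteins, by oral gavage, 12 mg/kg on 5 consecutive days every other week. The hippocampus had been separated by hand into CA1, CA3, DG and ventral hippocampus, and only the DG was sequenced here. The members were followed as measures of how much transcript of neighbouring neurons each DG sample held, and of whether it differed between treatments. Which cells of the sample, granule cells included, gave each member's transcript was not tested.

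In the DG, granule cells form a dense layer around the hilus, and the hilus holds the excitatory mossy cells, which are driven by granule cells and project back to them. Beyond the hilus lie the pyramidal cells of CA3, then the small field CA2 and then CA1, the main output field, which lies close to the DG across the hippocampal fissure. In whole tissue, fewer cells of a type and less RNA per cell cannot be told apart, so each value below is a level of transcript in the sample.

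Promoter sequences are shown for 3 of the 4 CA1 genes whose levels rose and fell together from rat to rat, so that the stretches upstream of such genes can be read side by side. They were taken from RefSeq on the assembly GRCr8, which is not the build of the expression values, and 4 of the 9 members matched an entry (Calcrl, Fibcd1, Wfs1 and Mpped1). Each runs 5′ to 3′ on the strand of the gene, from 250 bases before to 50 bases after the annotated start, and capitals mark every CG dinucleotide. Fibcd1 is at chr3:35524093-35524392 on the minus strand, Wfs1 at chr14:78034955-78035254 on the plus strand and Mpped1 at chr7:116824504-116824803 on the plus strand.
Fibcd1: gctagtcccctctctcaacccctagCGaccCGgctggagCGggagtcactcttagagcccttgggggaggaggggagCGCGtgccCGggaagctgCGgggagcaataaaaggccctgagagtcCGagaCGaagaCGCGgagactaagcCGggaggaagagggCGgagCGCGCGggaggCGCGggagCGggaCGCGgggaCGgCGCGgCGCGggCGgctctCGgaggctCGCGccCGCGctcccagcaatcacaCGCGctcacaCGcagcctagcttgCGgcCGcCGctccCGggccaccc
Wfs1: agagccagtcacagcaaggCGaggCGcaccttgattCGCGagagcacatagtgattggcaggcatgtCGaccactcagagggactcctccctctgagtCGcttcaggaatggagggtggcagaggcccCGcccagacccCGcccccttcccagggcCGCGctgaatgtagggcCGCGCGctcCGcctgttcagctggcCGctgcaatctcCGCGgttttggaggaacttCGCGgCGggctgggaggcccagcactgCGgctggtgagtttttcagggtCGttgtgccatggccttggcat
Mpped1: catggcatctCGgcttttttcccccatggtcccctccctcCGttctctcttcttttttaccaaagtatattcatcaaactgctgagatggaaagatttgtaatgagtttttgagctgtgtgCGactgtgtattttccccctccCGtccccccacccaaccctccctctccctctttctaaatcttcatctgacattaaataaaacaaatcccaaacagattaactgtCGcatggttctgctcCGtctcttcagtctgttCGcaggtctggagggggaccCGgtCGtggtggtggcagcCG

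These 3 stretches differed in base composition. Fibcd1 held 39 CG dinucleotides at a GC content of 72.7%, Wfs1 held 22 at 64.7% and Mpped1 held 10 at 49.3%, whereas the median over 33469 RefSeq promoters of the same length was 7 CG dinucleotides and 51.7% GC, and 94.5% of all promoters held at least 1. The octamer ATGCAAAT, a sequence bound by POU factors such as the product of Pou3f1, was searched on both strands and was in none of the 4 matched promoters. It was in 1.78% of all promoters. AGAACA, the core of the element bound by corticosteroid receptors such as the product of Nr3c2, was found once, in the Calcrl promoter (TGTTCT on the strand of the gene, -222 bases from the start), and 20.7% of all promoters held it on either strand. A match or its absence describes only these letters in these windows.

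Measured levels are given as normalized counts, which are read counts divided by a library factor, and they were not divided by transcript length, so levels of different genes are not compared. Totals of normalized counts ran from 14255791 to 20285400 per library. Markers of granule cells were present throughout, with Prox1 between 1680 and 3587 and C1ql2 between 3980 and 9272 in every rat. The libraries fell into 2 kinds along the first principal component of within-group deviations. The first kind held 16 rats (4 Veh, 5 Dox and 7 Dox + ABT) and the second held 10 (6 Veh, 3 Dox and 1 Dox + ABT), so kind and treatment were unequally mixed. The kinds also differed in the share of normalized counts from ribosomal protein genes (0.993% ± 0.146 and 1.64% ± 0.224, SD) and from mitochondrial genes (8.07% ± 1.89 and 12.96% ± 2.95, SD). The r of member pairs that passed a test, and the comparison of Calcrl between groups, are therefore also given within each kind, while the r with other genes is pooled.

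Of the 4 CA1 members tested, Pou3f1 varied most. It encodes a POU domain transcription factor of CA1 pyramidal neurons. In Veh rats it ran from 25.3 to 1142 normalized counts with a median of 369, in Dox rats from 26.4 to 706 with a median of 231, and in Dox + ABT rats from 79.5 to 1196 with a median of 178. The highest rat, Dox + ABT 4, thus held 47.3-fold the level of the lowest, Veh 10, and each group had both high and low rats. Means were 409 ± 330 for Veh, 292 ± 256 for Dox and 403 ± 403 for Dox + ABT (SD).

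Wfs1 encodes wolframin, a protein of the endoplasmic reticulum that marks CA1 pyramidal cells in rodents. It ran from 1285 to 10494 normalized counts in Veh (median 4745), from 884 to 9498 in Dox (median 3635) and from 1201 to 13686 in Dox + ABT (median 2378). The 3 groups overlapped almost completely, and the range over all rats was 15.5-fold. The lowest levels were in Dox 9 (884), Dox 14 (1076), Dox + ABT 12 (1201) and Veh 10 (1285), and the highest were in Dox + ABT 4 (13686), Veh 6 (10494), Dox 10 (9498) and Dox + ABT 3 (9099). High and low rats therefore came from all 3 groups.

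Mpped1, a metallophosphoesterase domain gene, and Fibcd1, which encodes a membrane protein with a fibrinogen-like domain, varied less but in the same rats. Mpped1 ran from 505 to 3516 normalized counts in Veh (median 1535), from 609 to 2399 in Dox (median 1330) and from 750 to 4351 in Dox + ABT (median 1032), an 8.62-fold range over all rats. Fibcd1 ran from 513 to 3096 in Veh (median 1547), from 678 to 2553 in Dox (median 1234) and from 593 to 4332 in Dox + ABT (median 861), an 8.45-fold range. In Dox + ABT a single rat, number 4, stood above all others for both genes, and the remaining 7 rats did not exceed 2371 for Mpped1 or 1733 for Fibcd1. Fibcd1 was also higher in the second kind of library, with a mean log2 level of 10.95 against 10.01 in the first kind, and only 1 of the 8 Dox + ABT rats was of the second kind. The mean log2 level was also higher in the second kind for Pou3f1 (8.44 against 7.57), Mpped1 (10.88 against 10.22), Ociad2 (5.11 against 4.57), Wfs1 (12.07 against 11.64), Calcrl (6.85 against 6.45) and Spink8 (1.38 against 0.69), while Calb2 (6.56 against 6.55) and Nr3c2 (10.27 against 10.32) differed by less than 0.1. These differences between kinds were not tested.

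Spink8, a Kazal-type serine protease inhibitor gene used as a CA1 marker in mouse, was close to undetected. It was at 0 in 10 of 26 rats and at most 6.28 normalized counts, with a mean of 1.40, below the mean of 5 required for testing. Group means were 1.72 ± 1.96 for Veh, 1.28 ± 2.14 for Dox and 1.11 ± 1.09 for Dox + ABT (SD), so the spread in each group was about as large as the mean or larger, and no difference was detectable at this depth (exact permutation p of 0.494 to 0.859 in the 3 comparisons, two-sided). The plot of all members by rat shows these values.

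**Figure D1:**
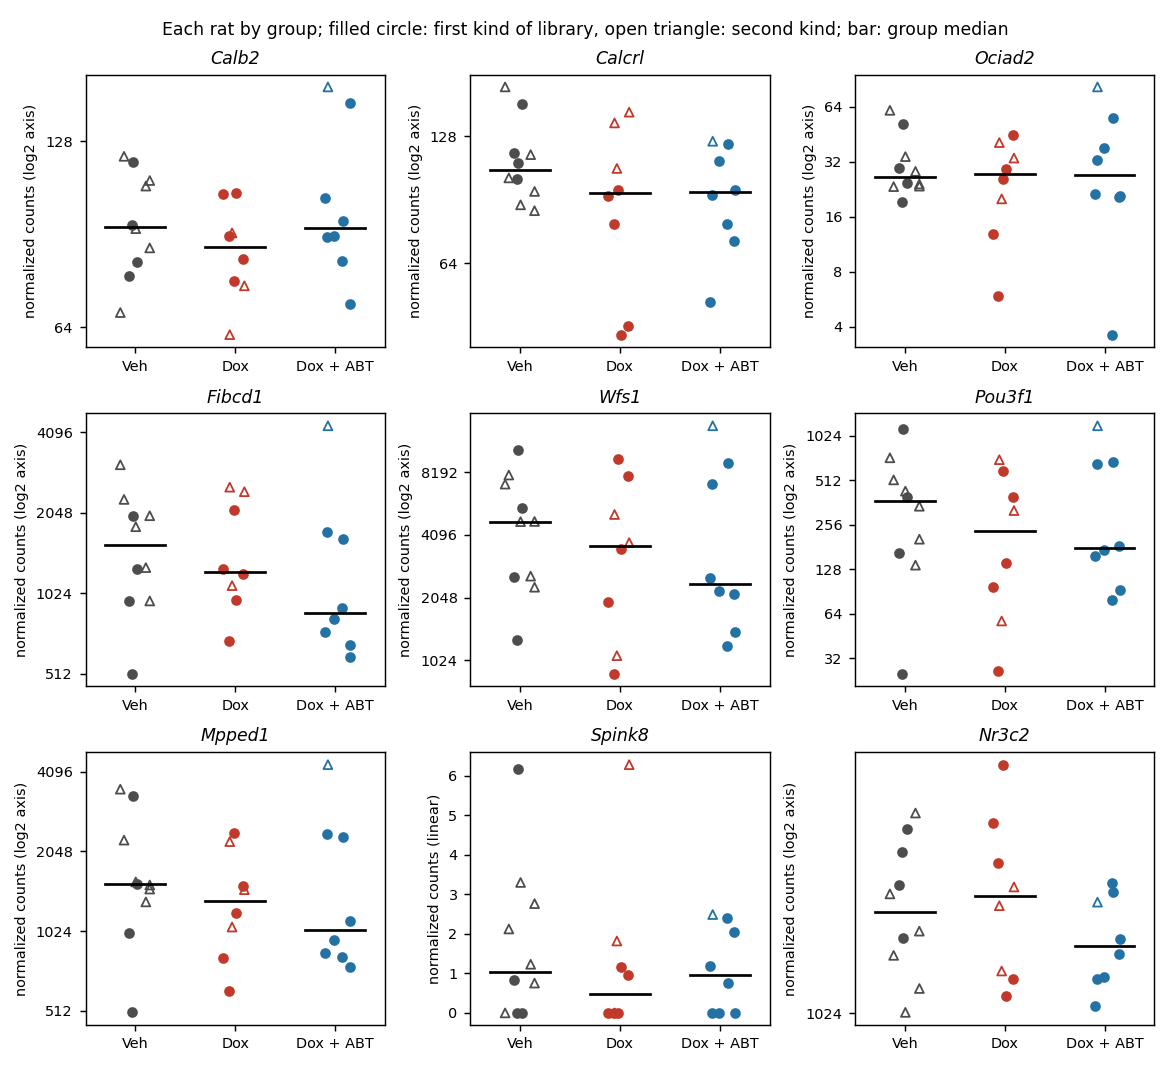
Normalized counts of the 9 genes in each of 26 rats by group (log2 axes, except the linear axis of Spink8). Filled circles are libraries of the first kind, open triangles those of the second kind, and bars are group medians. Wfs1 spanned 884 to 13686 and Pou3f1 25.3 to 1196 with high and low rats in every group, whereas Nr3c2 stayed between 1026 and 1729.

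Of the mossy cell genes, Calb2 and Calcrl spanned narrower ranges than the 4 tested CA1 genes, and Ociad2 did not. Calb2 encodes calretinin, a calcium-binding protein that marks mossy cells in mouse, while in the rat hippocampus it is a protein of interneurons and immature granule cells. It is kept here under the list that it came from. Calb2 ran from 67.6 to 121 normalized counts in Veh (median 93.1), from 62.3 to 106 in Dox (median 86.2) and from 69.9 to 157 in Dox + ABT (median 92.6). The groups overlapped, and the highest values were those of Dox + ABT 4 (157) and Dox + ABT 11 (148). The range over all rats was 2.52-fold.

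Calcrl encodes the receptor that binds calcitonin gene-related peptide or adrenomedullin together with a RAMP protein, and it is expressed by endothelial cells as well as by mossy cells. It ran from 85.3 to 167 normalized counts in Veh (median 106), from 43.4 to 146 in Dox (median 94.0) and from 51.9 to 125 in Dox + ABT (median 94.3). The lowest values were in Dox 2 (43.4), Dox 1 (45.5) and Dox + ABT 1 (51.9), below all 10 Veh rats. Ociad2, listed with the mossy cell genes, ran from 19.4 to 61.2 in Veh (median 26.4), from 5.86 to 44.6 in Dox (median 27.5) and from 3.61 to 82.2 in Dox + ABT (median 27.1). Its medians were close together, and 2 rats, Dox 9 (5.86) and Dox + ABT 12 (3.61), were the lowest of their groups.

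Nr3c2 encodes the mineralocorticoid receptor, which binds corticosterone in hippocampal neurons and is particularly abundant in CA2. It was the steadiest member, from 1026 to 1561 normalized counts in Veh (median 1267), 1062 to 1729 in Dox (median 1310) and 1040 to 1347 in Dox + ABT (median 1180). All 3 groups overlapped, and the range over all rats was 1.69-fold.

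The spread between rats of 1 group was then set beside that of the other genes. On the log2 scale the residual SD around the group means was 1.55 for Pou3f1, 1.17 for Wfs1, 0.82 for Mpped1 and 0.81 for Fibcd1, against a median of 0.31 over 15595 tested genes. Among genes with a mean within 0.5 log2 units of their own, none of 2329 exceeded Pou3f1, 2 of 669 exceeded Wfs1, 6 of 1647 exceeded Mpped1 and 8 of 1743 exceeded Fibcd1. Ociad2 had an SD of 0.91, which 58 of 1081 genes of like level exceeded, and Calcrl one of 0.47, which 288 of 1693 exceeded. Calb2 (0.31) and Nr3c2 (0.20) lay slightly below the medians of genes of their level, 0.34 and 0.22. The 4 CA1 genes thus stood near the upper edge of the spread for their level, which the plot of spread against level shows.

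**Figure D2:**
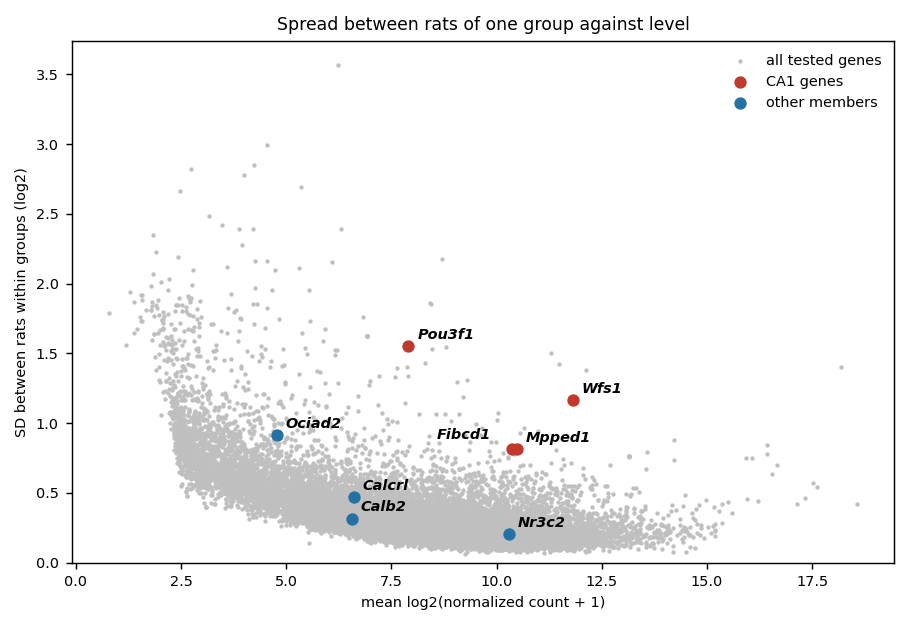
SD between rats within groups (log2) against mean log2(normalized count + 1) for 15595 tested genes (grey), the 4 tested CA1 genes (red) and the other 4 tested members (blue). Pou3f1 (1.55) and Wfs1 (1.17) lie far above the bulk of genes, while Nr3c2 (0.20) and Calb2 (0.31) lie within it.

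The 4 CA1 genes rose and fell together. With the means of group and kind of library removed, the 6 pairs among Fibcd1, Wfs1, Pou3f1 and Mpped1 had Pearson r between 0.88 and 0.96 and Spearman rho between 0.85 and 0.96 over 26 rats. Each pair had a permutation p of 1e-05 for Pearson r, the smallest that 100000 permutations can give, and an adjusted p of 6e-05 over 36 pairs. Leaving out 2 rats gave r of 0.88 to 0.95. They were those farthest from the median for 1 gene of the pair, so they differed between pairs. Within the kinds of library r was 0.87 to 0.97 (first, 16 rats) and 0.80 to 0.95 (second, 10 rats). Group means were removed within each kind, so Dox + ABT 4, alone of its group in the second kind, had no deviation there. Each r of the second kind thus rests on 6 Veh and 3 Dox rats. The closest pair was Wfs1 with Pou3f1 (r = 0.96, rho = 0.96). The relation therefore held in both kinds of library and did not rest on the most extreme rats.

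Ociad2, though listed as a mossy cell gene, varied with the CA1 genes. Its r was 0.75 with Wfs1, 0.72 with Pou3f1, 0.69 with Mpped1 and 0.57 with Fibcd1, and the permutation test gave adjusted p of 0.000135, 0.000103, 0.00032 and 0.0105. Its r was 0.03 with Calb2 and 0.19 with Calcrl, with adjusted permutation p of 0.956 and 0.683. Within the kinds of library these values were far apart. With Calb2 the r was 0.11 within the first kind (16 rats) and -0.87 within the second, and with Calcrl it was -0.02 and 0.82. The values of the second kind rest on 6 Veh and 3 Dox rats. Dox + ABT 4, the highest of all rats for Calb2 and Ociad2, does not enter them. The difference between kinds in r was not tested. Leaving out the 2 farthest rats left r of 0.67 to 0.74 with the CA1 genes, and r was 0.49 to 0.78 within the first kind of library and 0.61 to 0.79 within the second.

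Calcrl varied with Nr3c2 (r = 0.63, rho = 0.58, adjusted permutation p = 0.00608, 26 rats). This r was 0.50 without the 2 farthest rats, 0.75 within the first kind of library and 0.62 within the second. Calb2 had pooled r of -0.05 to 0.09 with the 4 CA1 genes, but these were -0.09 to 0.10 within the first kind of library and -0.70 to -0.56 within the second. Dox + ABT 4, the highest rat for Calb2 and for each of the 4 CA1 genes, does not enter the values of the second kind. The r of Calb2 was -0.37 with Calcrl (adjusted permutation p = 0.0957). By Spearman rho the pair of Calb2 and Calcrl passed, in opposite directions (rho = -0.45, adjusted permutation p = 0.0402). Over all 26 rats no pair of the 3 genes listed for mossy cells thus rose and fell together past the threshold. Within the kinds of library the r of Calb2 with Calcrl was -0.32 and -0.58. Nr3c2 had pooled r of -0.01 to 0.26 with the CA1 genes, -0.13 to 0.15 within the first kind and 0.05 to 0.25 within the second. Calcrl had pooled r of 0.11 to 0.37 with the CA1 genes, 0.10 to 0.39 within the first kind and 0.45 to 0.75 within the second, and its pair with Fibcd1 passed by Spearman rho (rho = 0.46, adjusted permutation p = 0.0162) though not by Pearson r (adjusted permutation p = 0.0642). Spink8 had pooled r of 0.02 to 0.12 with the other CA1 genes, 0.18 to 0.34 within the first kind and -0.56 to -0.28 within the second. It passed the test with Calb2 (r = 0.47, adjusted permutation p = 0.0222) and, by Spearman rho alone, with Calcrl (rho = -0.41, adjusted permutation p = 0.0447), weak relations of sparse counts from which nothing is read. Their r within the first and second kind was 0.53 and 0.62 with Calb2, and -0.52 and -0.41 with Calcrl. In all, 12 of 36 pairs passed at an adjusted p under 0.05 by Pearson r, all positive, and 15 by Spearman rho. Within the second kind of library alone 3 passed.

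**Figure D3:**
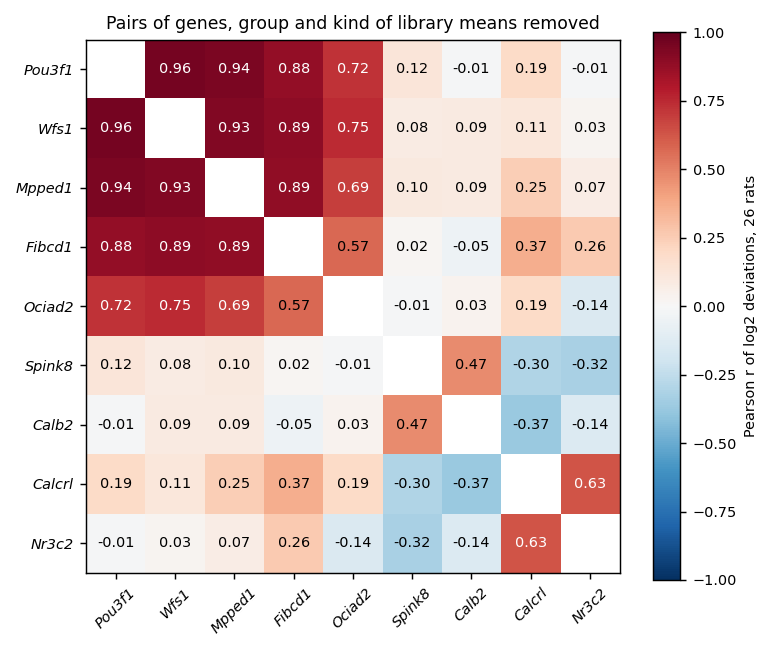
Pearson r between members over 26 rats, after removal of the means of group and kind of library from log2(normalized count + 1). Pou3f1, Wfs1, Mpped1 and Fibcd1 form a block with r of 0.88 to 0.96, Ociad2 joins it at 0.57 to 0.75, and Calcrl pairs with Nr3c2 at 0.63.

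To see which other genes varied with the CA1 genes, the log2 level of every gene was regressed on that of Wfs1 in limma, with group and kind of library in the fit. Of 15594 genes, 305 had a slope at an adjusted p under 0.05 (1.96%), 244 of them positive and 61 negative. A doubling of Wfs1 went with a log2 difference of 1.23 ± 0.07 in Pou3f1, 0.60 ± 0.05 in Mpped1, 0.51 ± 0.05 in Fibcd1 and 0.57 ± 0.10 in Ociad2 (slope ± SE, adjusted limma p of 1.05e-11, 1.78e-09, 1.24e-07 and 0.00172). Calb2, Calcrl and Nr3c2 had slopes of 0.02 ± 0.06, 0.04 ± 0.08 and 0.005 ± 0.036, and none of these passed. Pou3f1 thus changed more steeply than Wfs1 from rat to rat and the other genes less steeply.

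Ndst4, a heparan sulfate sulfotransferase gene on the CA1 list that is no member, moved the same way, with a slope of 0.94 ± 0.15 (adjusted limma p = 0.00038). The median slope over all genes was -0.0006. Among CA2 genes 1 of 5 passed, Rgs14 (0.23 ± 0.03, adjusted limma p = 3.95e-05), a signalling regulator. Among CA3 genes 1 of 4 passed, and Grik4, a kainate receptor subunit gene, was lower where Wfs1 was higher (-0.21 ± 0.05, adjusted limma p = 0.029). Among mossy cell genes Ociad2 was positive and Nmb, which encodes neuromedin B, was negative (-0.28 ± 0.07, adjusted limma p = 0.0242).

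None of 7 granule cell genes passed, and their median slope was -0.07. Of 9 interneuron genes Vip passed (0.34 ± 0.06, adjusted limma p = 0.000809), and of 3 tested choroid plexus genes Clic6 passed (0.85 ± 0.21, adjusted limma p = 0.0272), at a mean of 6.97 normalized counts and 0 in at least 1 rat. No gene passed among 5 immature granule cell, 5 endothelial, 4 thalamic, 8 CGRP and adrenomedullin receptor and 4 corticosteroid receptor genes. Within the first kind of library alone, 121 genes passed, and these included Pou3f1, Mpped1, Fibcd1, Ociad2, Ndst4, Rgs14 and Vip but not Grik4 (adjusted limma p = 0.0822), Nmb (0.0581) or Clic6 (0.231).

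**Figure D4:**
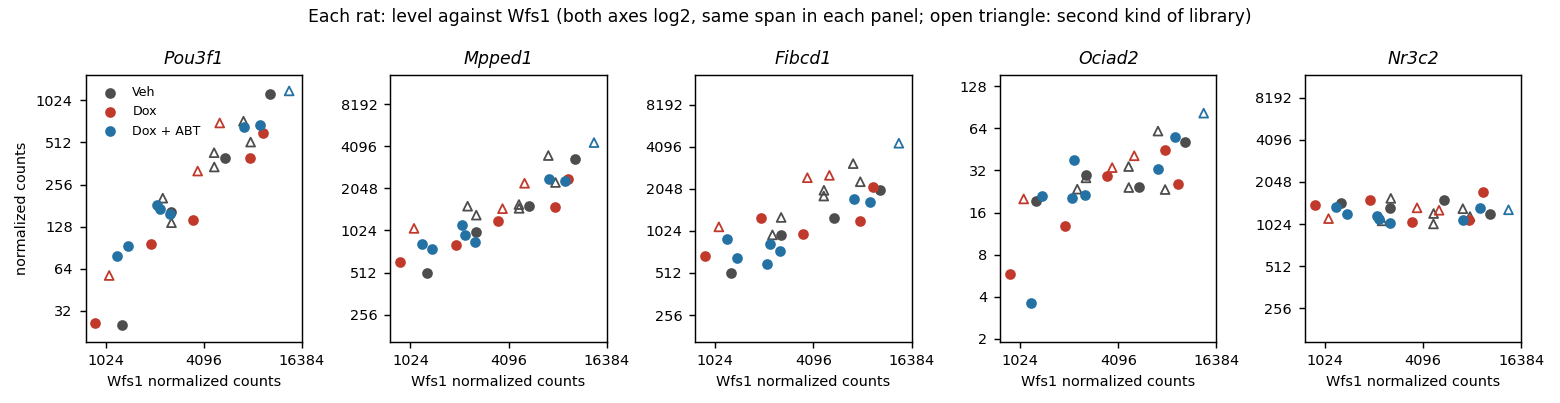
Normalized counts of Pou3f1, Mpped1, Fibcd1, Ociad2 and Nr3c2 against those of Wfs1 in each of 26 rats (log2 axes of equal span), by group (colours) and kind of library (filled circles first, open triangles second). Pou3f1 follows Wfs1 most steeply (slope 1.23), the next 3 genes less steeply (0.51 to 0.60), and Nr3c2 stays level (0.005).

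The genes most like each member over the 26 rats were found by Pearson r, as a description, over all genes whose mean level reached 50 normalized counts. The 4 CA1 members shared neighbours. Wfs1 was nearest to Pou3f1, Ptpru, Ccn3, Rasl11b and Htr1b (r = 0.93 to 0.96), Pou3f1 to AABR07049886.2, Nts, Ptpru, Ccn3 and Wfs1 (0.96 to 0.97), Fibcd1 to Htr1b, Ptpru, Wnt2, Gpr161 and Strip2 (0.91 to 0.93), and Mpped1 to Ccn3, Cpne8, Tmem44, Pou3f1 and Wfs1 (0.93 to 0.96). Htr1b encodes a serotonin receptor, Ptpru a receptor tyrosine phosphatase, Ccn3 a secreted matrix protein and Nts the neuropeptide neurotensin.

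The other members had neighbours of their own. Ociad2 was nearest to Ppp1r2, Masp1, Plpp6, Myo6 and Arap2 (r = 0.81 to 0.85), Calb2 to Tmem134, Rprm, Ghitm, Rab3b and Mlc1 (0.71 to 0.79), Calcrl to Zeb2, LOC108348175, Tjp1, AABR07021704.1 and Alcam (0.86 to 0.87), and Nr3c2 to Amer2, Tmtc1, Septin11, Zfp652 and Setd7 (0.84 to 0.90). None of the 5 nearest genes of these 4 members was a member itself.

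The mean of the 4 CA1 genes, each as a z-score over all rats, ordered the rats. Highest were Dox + ABT 4 (1.86), Veh 6 (1.28), Veh 12 (1.28), Dox 10 (0.97) and Veh 3 (0.90), and these 5 rats were among the 8 highest for each of the 4 genes. Lowest were Veh 10 (-1.75), Dox 9 (-1.65), Dox + ABT 6 (-1.13) and Dox + ABT 12 (-1.03), and these 4 rats were among the 8 lowest for each of the 4 genes. Group means were 0.17 ± 0.92 for Veh, -0.13 ± 0.93 for Dox and -0.08 ± 1.11 for Dox + ABT (SD), so rats differed far more within groups than groups did.

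The treatments were then compared in limma with all 26 rats in 1 fit, and a gene was called at p under 0.01, the study's own threshold. The 3 comparisons share rats, so they are not independent of each other. Of the 8 members tested, 0 were called in Dox against Veh, where 2.87% of all genes were, 0 in Dox + ABT against Veh, where 7.84% were, and 0 in Dox against Dox + ABT, where 4.03% were. At an unadjusted limma p under 0.05 the count was 0 in each comparison as well, where 10.2%, 22.5% and 12.7% of all genes were, and an exact permutation test of each gene also gave 0 at both thresholds. The median log2 difference of the members was -0.33, -0.19 and -0.11 in the 3 comparisons, against medians within 0.005 of 0 over all genes. The 4 CA1 genes and Ociad2 varied together, so these are not medians of 8 independent genes. Their distance from those of all genes was not tested.

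**Figure D5:**
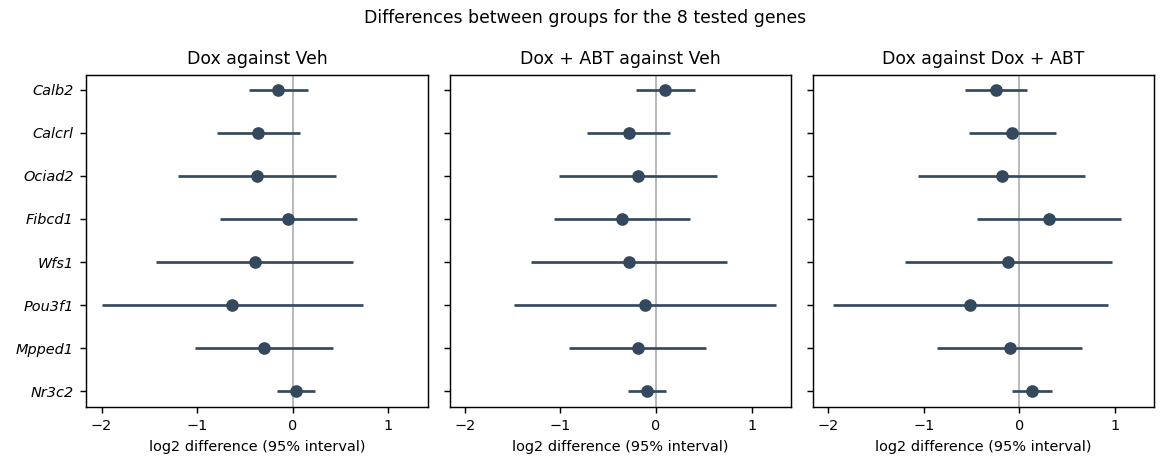
Log2 differences between groups with 95% intervals for the 8 tested members in the 3 comparisons (limma, 26 rats). All 24 intervals include 0. They are widest for Pou3f1 (-1.95 to 0.93 in Dox against Dox + ABT) and narrow for Nr3c2 (-0.16 to 0.23 in Dox against Veh).

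The CA1 genes left wide intervals. In Dox against Veh the log2 difference was -0.63 ± 0.67 for Pou3f1 (SE, 95% interval -1.997 to 0.74), -0.40 ± 0.50 for Wfs1 (-1.43 to 0.63), -0.30 ± 0.35 for Mpped1 (-1.02 to 0.42) and -0.05 ± 0.35 for Fibcd1 (-0.76 to 0.67). For Wfs1 this interval covers ratios from 0.372 to 1.55. In Dox + ABT against Veh these differences were -0.12 ± 0.67, -0.28 ± 0.50, -0.19 ± 0.35 and -0.36 ± 0.35, and in Dox against Dox + ABT they were -0.51 ± 0.70, -0.12 ± 0.53, -0.10 ± 0.37 and 0.31 ± 0.37, with limma p of 0.317 to 0.894 over the 12 tests. A difference of 2-fold between groups was thus inside the interval of Pou3f1 and Wfs1 in at least 1 direction in each comparison, and these data do not show that the groups were alike. With library kind added to the fit, the differences in Dox + ABT against Veh turned to 0.34 for Pou3f1, 0.14 for Mpped1 and 0.11 for Fibcd1, and that of Fibcd1 in Dox against Veh turned to 0.18, none of them called by limma.

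With log2 Wfs1 as a covariate, an alternative added after the data were seen, the CA1 genes were compared at equal Wfs1 level. The SE of Pou3f1 in Dox against Veh then fell from 0.67 to 0.22, that of Mpped1 from 0.35 to 0.16 and that of Fibcd1 from 0.35 to 0.21. The differences at equal Wfs1 were -0.13 (95% interval -0.58 to 0.33) for Pou3f1, -0.05 (-0.37 to 0.28) for Mpped1 and 0.18 (-0.26 to 0.61) for Fibcd1. Of 7 members, 0 were called in any comparison by limma, and 0 had p under 0.05. The smallest p was 0.1001, for Fibcd1 in Dox against Dox + ABT (0.38, 95% interval -0.08 to 0.83). Over all genes, the counts called with the covariate were 440, 1176 and 652 in the 3 comparisons, of which 377, 1091 and 601 were also among the 448, 1222 and 629 called without it.

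Among the mossy cell genes, Calcrl had the smallest p of any member, 0.0984 in Dox against Veh by limma (log2 difference -0.36 ± 0.21, 95% interval -0.80 to 0.07, adjusted p = 0.557). This value moved with the kind of library and with 2 rats. Within the first kind the difference was -0.81, with a limma p of 0.00603 (5 Dox and 4 Veh rats), within the second kind it was 0.28 (p = 0.211, limma, 3 Dox and 6 Veh rats), and the difference between kinds was -1.09 ± 0.36 (limma p = 0.00587, adjusted p = 0.112). Without Dox 1 and Dox 2, both of the first kind, the pooled difference was -0.05 (limma p = 0.787), that within the first kind -0.42 and that between kinds -0.70 ± 0.33 (limma p = 0.0454). In Dox + ABT against Veh, Calcrl differed by -0.29 ± 0.21 (limma p = 0.186).

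Calb2 differed by -0.15 ± 0.15 in Dox against Veh (95% interval -0.46 to 0.16), 0.10 ± 0.15 in Dox + ABT against Veh (-0.21 to 0.40) and -0.25 ± 0.16 in Dox against Dox + ABT (-0.57 to 0.08), with limma p of 0.325, 0.526 and 0.130. Ociad2 differed by -0.37 ± 0.40, -0.19 ± 0.40 and -0.19 ± 0.43. For Nr3c2 the differences were 0.03 ± 0.10 (95% interval -0.16 to 0.23), -0.10 ± 0.10 (-0.29 to 0.10) and 0.13 ± 0.10 (-0.08 to 0.34). For Nr3c2 in Dox against Veh the interval covers ratios from 0.894 to 1.17, so a change of 1.5-fold lay outside it.

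The rest of the mossy cell, CA1, CA2 and CA3 lists also gave 0 called genes in each of the 3 comparisons by limma with all 26 rats. Without Dox 1 and Dox 2, 1 of them was called, Cacng5, a CA2 gene, in Dox against Dox + ABT (-0.83 ± 0.24, limma p = 0.00184, adjusted p = 0.273). With all rats the smallest p in each was that of Drd2, a dopamine receptor gene of mossy cells (log2 difference -0.63 ± 0.27 in Dox against Veh, p = 0.0270), Ndst4 (-1.42 ± 0.64 in Dox against Dox + ABT, p = 0.0353), Cacng5 (-0.54 ± 0.26 in the same comparison, p = 0.0423) and Grik4 (0.35 ± 0.18 in the same comparison, p = 0.0648). Next in these lists came Cntn6 and Nmb, Amigo2 and Pcp4, and Coch and Bok, with limma p of 0.0550 to 0.330. Of these 10 genes, Ndst4 alone differed by over 2-fold in the comparison of its smallest p.

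Genes of the pathways of 2 members were called where the members were not. Of 8 CGRP and adrenomedullin receptor genes, which include Calcrl and its RAMP partners, Adm, the adrenomedullin gene, was called higher in Dox against Veh (log2 difference 1.11 ± 0.36, limma p = 0.00477, adjusted p = 0.290) and in Dox against Dox + ABT (1.40 ± 0.38, limma p = 0.000992, adjusted p = 0.161), at a mean of 17.7 normalized counts. Ramp1 had the next smallest p (0.0424 in Dox + ABT against Veh, limma), followed by Calcrl itself (0.0984 in Dox against Veh, limma) and Ramp2 (0.108 in Dox against Dox + ABT, limma). Of 4 corticosteroid receptor genes, Fkbp5, a chaperone gene induced by glucocorticoids, was called higher in Dox against Veh (0.39 ± 0.12, limma p = 0.00286, adjusted p = 0.247) and in Dox against Dox + ABT (0.43 ± 0.13, limma p = 0.00202, adjusted p = 0.177). Next were Hsd11b1, at -0.34 in Dox + ABT against Veh (limma p = 0.0131), and Nr3c1, at -0.33 in Dox against Dox + ABT (limma p = 0.0150), neither called. Without Dox 1 and Dox 2, Adm differed by 0.83 (limma p = 0.0409) and 1.12 (p = 0.00987), and Fkbp5 by 0.15 (limma p = 0.0286) and 0.19 (p = 0.0102), so only Adm in the second comparison stayed called.

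Markers of other cells that the dissection could hold were listed for the same samples. In Dox against Veh, Igfbpl1 (-0.94 ± 0.28, limma p = 0.00191) and Tubb2b (-0.43 ± 0.15, limma p = 0.00665) were called lower of 5 immature granule cell genes and Kdr, a vascular growth factor receptor gene, higher of 5 endothelial genes (0.81 ± 0.21, limma p = 0.000538). The endothelial list had mixed signs, with Tek at -0.40 and Cdh5 at -0.29, neither called. Dcx and Neurod1 of the immature granule cell list were both at 0.05. Without Dox 1 and Dox 2, Tubb2b was no longer called (-0.17, limma p = 0.112), while Igfbpl1 (-1.07, p = 0.00134) and Kdr (0.78, p = 0.00246) stayed called by limma. Flt1 of the endothelial list (0.52), Reln of the interneuron list (0.22), Pdzd2 of the granule cell list (0.36) and Lhx9 of the thalamic list (0.35) had limma p of 0.0606, 0.0761, 0.0823 and 0.120 in this comparison. In Dox + ABT against Veh, C1ql2 of 7 granule cell genes (-0.46 ± 0.12, limma p = 0.000697) and Neurod1 (-0.33 ± 0.10, limma p = 0.00300) were called lower, and Gad1 and Gad2 of 9 interneuron genes (0.25 ± 0.09 and 0.27 ± 0.10, limma p = 0.00898 and 0.00795) were called higher. Both lists had mixed signs in this comparison, with the granule cell genes Plk5 at 0.63 and Prox1 at 0.22 and the interneuron genes Pvalb at -0.30, Htr3a at -0.23 and Slc32a1 at -0.04, none of them called. Of the immature granule cell list, Dcx was at 0.21 and Igfbpl1, Sox11 and Tubb2b were at -0.32, -0.30 and -0.27, none called. Library kind was not in this fit, and 6 of 10 Veh but 1 of 8 Dox + ABT rats were of the second kind. In Dox against Dox + ABT, Neurod1 was called higher (0.38 ± 0.11, limma p = 0.00140). The rest of the immature granule cell list went the other way there. Igfbpl1 was at -0.62 (limma p = 0.0414), Dcx at -0.16, Tubb2b at -0.16 and Sox11 at -0.05, and none of them was called. None of these had an adjusted p under 0.1. With all rats no choroid plexus or thalamic gene was called. The smallest p in these lists were those of Ttr (-1.63, limma p = 0.0147) and Slc17a6 (-0.94, limma p = 0.0162) in Dox against Dox + ABT, where Clic6 was at -1.08, Aqp1 at 0.81 and the endothelial gene Cldn5 at 0.57 (limma p of 0.143, 0.237 and 0.0343), and Prkcd was at 0.17 in Dox + ABT against Veh (limma p = 0.355). Leaving out Dox 1 and Dox 2, Ttr (-2.21, limma p = 0.00181) and Cldn5 (0.78, limma p = 0.00781) were called in Dox against Dox + ABT, and Neurod1 stayed called (0.44, limma p = 0.000794). The part of these cells in the members' values was not tested.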

How the data were processed

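RNA of 1 DG per rat was sequenced on an Ion Proton after poly(A) selection. Per the labels and methods, the authors aligned reads to rn6 with STAR 2.5.3a in Partek Flow and scaled counts by Median Ratio. The deposited values are therefore a normalized signal and not raw counts, and the study's DESeq2 test was replaced by limma 3.58.1 (R 4.3.3; lmFit, contrasts.fit, eBayes with trend) on log2(value + 1). A fold change on this scale understates changes of low genes. The 24012 rows were summed to 17910 gene IDs, and the 15595 with a mean of at least 5 were tested two-sided, with Benjamini-Hochberg adjustment over all of them. A total is not a depth in reads, and no counting intervals are given. In simulated data 89.5% of 200 genes changed by 1 on the log2 scale were recovered at limma p under 0.01 in Dox against Veh, and 1.05% of the other genes were called. The 200 genes were drawn from all tested genes, with independent noise and no kinds of library. Their median SD was that of all genes, about 0.31, so this share does not hold for the CA1 members, whose SD was 0.81 to 1.55.

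Pairs of members were tested by 100000 permutations within group and kind of library (two-sided, numpy 2.4.6, Python 3.11.15). Kinds are the sides of the largest gap of the first principal component (28.4% of within-group variance, genes with a mean of at least 20), which uses all genes. All members were named, as were the 5 genes most like each member and, from every further list, the 3 genes of smallest p. Further listed genes were named after their values were seen, to show opposite signs. Members, lists and tests were chosen with earlier results of these data known. Samples were grouped by treatment label, and replicates are different rats. Alternatives were other pseudocounts, filters, variance models, scalings, subsets, covariates and an exact test. Map3k15, Iyd, Tdo2, Dock10 and Pecam1, which belong to the lists, were not analysed here. A listed gene is not reported here.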

Additional observations from a re-analysis of the deposited data

Results flagged for a closer look

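Of 24 groups of values (8 tested members in 3 groups), 1 held a rat whose gap to its neighbour was large for the range of its group by Dixon's criterion, and chance flags about 1 in 20. Ociad2 in Dox + ABT 12 was at 3.61 normalized counts, the next lowest rat of that group was at 20.4, and the gap took up 0.531 of the range on the log2 scale (n = 8). The same rat was among the 8 lowest for each of Fibcd1, Wfs1, Pou3f1 and Mpped1.

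The difference of Calcrl between Dox and Veh was not the same in the 2 kinds of library. It was -0.81 in the first kind and 0.28 in the second, and the difference between them was -1.09 on the log2 scale (limma p = 0.00587, adjusted p = 0.112 over all genes). Without Dox 1 and Dox 2 it was -0.70 (limma p = 0.0454). The kinds were found from these data, and the test was added after the values were seen.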

How the results depend on the processing

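No member was called in any comparison under the alternatives run, apart from Calcrl in Dox against Veh within the first kind of library, where 1 member was called (-0.81, limma p = 0.00603). Of 1037 values of single members under an alternative, 986 kept their direction and their side of the threshold and 50 changed direction, each from a difference that was not called. The number of pairs that varied together fell from 12 to 3 within the second kind of library and was 10 to 13 under the other alternatives. The second kind holds 10 rats, of which the single Dox + ABT rat does not enter r. The cause of the other changes was not tested. Totals of normalized counts do not give the reads per library, and low levels limit Spink8 and Ociad2 most.

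Rats share replicate numbers across groups. The deviations of same-numbered rats had r from -0.171 to 0.141 over 5 pairs in Dox and Veh. They had r from -0.140 to 0.298 over 8 pairs in Dox + ABT and Veh, and 0.0165 to 0.168 over 3 in Dox and Dox + ABT. Rats of different numbers were not compared in this way, so these r cannot show whether the numbers mark a batch. The numbers run within groups and were treated as names of different rats. With the replicate block, 0 members were called in each comparison. In Dox against Veh the block turned the log2 difference to 0.27 for Fibcd1, 0.50 for Wfs1, 0.45 for Pou3f1 and 0.26 for Mpped1, and in Dox against Dox + ABT to 0.19 for Ociad2, 1.05 for Wfs1, 1.05 for Pou3f1 and 0.65 for Mpped1.

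Other values with a changed sign follow. With library kind added to the fit they were 0.18 for Fibcd1 in Dox against Veh and, in Dox + ABT against Veh, 0.082 for Ociad2, 0.11 for Fibcd1, 0.34 for Pou3f1 and 0.14 for Mpped1. Within the first kind of library they were 0.14 for Fibcd1 and -0.028 for Nr3c2 in Dox against Veh and 0.28 for Wfs1 in Dox against Dox + ABT. Within the second kind they were 0.28 for Calcrl and 0.10 for Fibcd1 in Dox against Veh. With arrayWeights, Calb2 was at -0.0009 in Dox + ABT against Veh. Without Dox 1 and Dox 2, added after the data were seen, Fibcd1 was at 0.075 in Dox against Veh and Calcrl at 0.24 in Dox against Dox + ABT. With log2 Wfs1 as a covariate, also added later, Fibcd1 was at 0.18 in Dox against Veh and Pou3f1 at 0.24 in Dox + ABT against Veh.

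Leaving out each rat in turn gave, in Dox against Veh, -0.21 to 0.10 for Fibcd1 and -0.024 to 0.076 for Nr3c2. In Dox + ABT against Veh it gave -0.42 to 0.18 for Ociad2 and -0.50 to 0.12 for Pou3f1. In Dox against Dox + ABT it gave -0.19 to 0.064 for Calcrl, -0.55 to 0.071 for Ociad2, -0.35 to 0.17 for Wfs1 and -0.23 to 0.13 for Mpped1. The single rats whose removal turned a sign were Veh 1, 3, 4, 6 and 12, Dox 1, 2, 9, 10 and 14, and Dox + ABT 2, 3, 4, 6 and 12.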
